A study of Rattus norvegicus with 9 samples.

Results

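Adipocyte and fat storage genes were examined in the rat knee after meniscal surgery. The group was named as 40 genes of adipocytes: the hormones that fat cells secrete, the coat of the lipid droplet, the enzymes that make, store and release fat, and the regulators of these genes. Genes were taken from the deposited expression table by symbol, and 39 of the 40 were found. Ucp1 was not analysed here. All 39 were above 0 TPM in at least 3 libraries and were tested, among 16512 genes tested of 17602 listed. TPM is a measure of transcript abundance that accounts for transcript length and sums to the same total in every library.

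RNA was sequenced from 9 libraries of WT male Lewis rats, 3 in each of 3 groups. The intact group was synovium, the lining of the joint, taken around the medial meniscus of knees with no surgery. Synovium of that site formed the sham group too, collected 1 week after the joint capsule had been opened and closed. The pMx group was regenerative tissue 1 week after partial medial meniscectomy (pMx), in which the front of the medial meniscus was cut away in both knees, and the synovium around this tissue was trimmed off at collection. The pMx and sham groups therefore differed in the tissue taken as well as in the operation, and these cannot be told apart here. The titles number the libraries as biological replicates, but the sources used here do not say whether a library holds 1 animal or a pool.

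White fat cells take up fatty acids and glucose, build triglyceride, keep it in a lipid droplet and release it again as fatty acids and glycerol when energy is needed. The nuclear receptor PPARγ, with C/EBPα, sets up and maintains this program, while SREBP1 and ChREBP control the genes of fatty acid synthesis. In the knee, fat cells lie beneath the synovial lining and in the infrapatellar fat pad.

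Transcripts of adipocyte and fat storage genes were far lower in the regenerative tissue than in the sham synovium. The 39 genes together held 0.792% ± 0.0332 (SD, n = 3) of all TPM in sham and 0.0855% ± 0.0121 in pMx. In intact synovium they held 0.809% ± 0.321, with single libraries between 0.527% and 1.16%. On the log2 scale the ratio of the summed levels was -3.21 for pMx to sham and -0.03 for sham to intact. In bulk tissue, fewer fat cells and less RNA of these genes per fat cell cannot be told apart. RNA integrity, as tabulated by the study, was also highest in the pMx samples and lowest in the intact samples, and its part in the results was not tested.

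A gene was called a differentially expressed gene (DEG) at an adjusted p below 0.05 in limma and an absolute log2 fold change above 1, on the log2(TPM + 1) scale. In pMx versus sham, 31 of the 39 genes were called lower and 0 higher, beside 4.85% of all genes tested that were called lower and 3.36% that were called higher. At an adjusted p below 0.05 without the fold threshold, 35 were lower, beside 18.9% of all genes. The lowest sham library was above the highest pMx library for 38 of the 39, which was so for 29% of all genes tested. The exception was Elovl6. The median log2 fold change was -2.71 over the 39 genes and -0.01 over all genes. Of the 10 largest decreases on this scale among all genes tested, 7 were adipocyte and fat storage genes, and of the 100 largest, 17. The members were chosen with earlier results of these data known, so these counts and ranks describe the list and are not independent support. The plot of levels by library shows the gap between pMx and sham gene by gene.

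**Figure D1:**
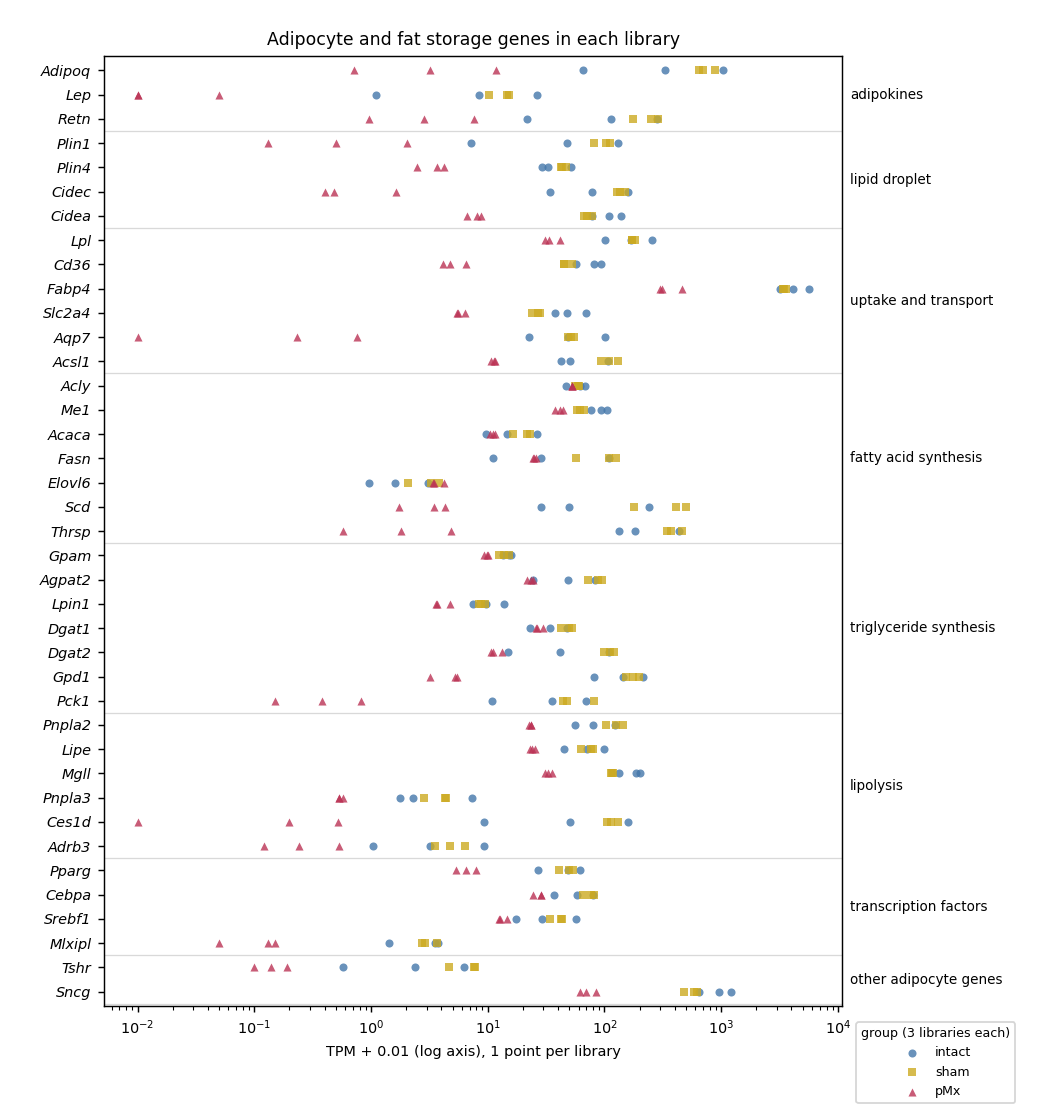
Level of each of the 39 genes in each of the 9 libraries, as TPM + 0.01 on a log axis, with genes grouped by role and 1 point per library (circles intact, squares sham, triangles pMx). The pMx points lie below all sham points for 38 genes, Elovl6 being the exception, and the intact points of Adipoq, Lep, Retn, Plin1, Ces1d and Tshr are spread over a more than 10-fold range.

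The transcription factors that direct the program were all called lower in pMx than in sham, 4 of 4. Pparg, the nuclear receptor required for fat cell formation, was at 54.08, 50.07 and 41.12 TPM in sham and at 6.52, 5.29 and 7.92 TPM in pMx. The groups did not overlap, and the log2 fold change was -2.71 (SE 0.27, adjusted p = 0.000161 in limma). Mlxipl, which encodes the glucose-responsive factor ChREBP, was at a low level in sham, 2.75, 2.90 and 3.64 TPM, and nearly lost in pMx, at 0.14, 0.04 and 0.12 TPM. The pMx mean of Mlxipl was 3.23% of the sham mean. Cebpa, the partner of PPARγ, and Srebf1, the activator of lipid synthesis genes, kept more of their level. Cebpa had a pMx mean of 36.7% of sham, with a log2 fold change of -1.41 (SE 0.24, adjusted p = 0.00196 in limma). Srebf1 had a pMx mean of 33.3%, with a log2 fold change of -1.51 (SE 0.35, adjusted p = 0.00935 in limma).

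Promoters were read for 26 of the 39 genes from RefSeq sequence of the rat assembly GRCr8, as the 250 bases before the listed start site. They are shown because the members moved together and because C/EBPα and the factors of the CCAAT box bind motifs that can be searched for. The C/EBP motif, written TTGCNNAA and searched on both strands, was present in 5 of the 26 promoters (19.2%), and in 9.2% of all 27456 promoters of that length. These 5 were Lep, Plin1, Cidec, Ces1d and Gpam, of which the first 4 were called lower in pMx than in sham and Gpam was not. The motif was thus in 4 of the 22 promoters of genes called lower and in 1 of the 4 others. These 5 promoters are printed below 5′ to 3′ on the strand of the gene, together with that of Adipoq, which had no such match. Adipoq had the largest decrease of the 39 genes in pMx versus sham on the log2(TPM + 1) scale. Capitals mark every match to TTGCNNAA or to CCAAT on either strand, the latter reading ATTGG when it lies on the opposite strand. In these 6 windows no match overlapped a match to the other motif.
Adipoq: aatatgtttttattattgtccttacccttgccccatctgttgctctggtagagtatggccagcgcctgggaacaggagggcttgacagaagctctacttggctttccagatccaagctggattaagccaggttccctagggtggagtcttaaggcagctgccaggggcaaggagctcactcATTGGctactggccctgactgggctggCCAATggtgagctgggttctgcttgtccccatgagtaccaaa
Lep: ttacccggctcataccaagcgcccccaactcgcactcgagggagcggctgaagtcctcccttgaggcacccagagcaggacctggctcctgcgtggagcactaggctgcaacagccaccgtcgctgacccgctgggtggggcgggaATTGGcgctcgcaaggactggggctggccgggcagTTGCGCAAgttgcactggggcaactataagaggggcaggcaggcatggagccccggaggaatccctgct
Plin1: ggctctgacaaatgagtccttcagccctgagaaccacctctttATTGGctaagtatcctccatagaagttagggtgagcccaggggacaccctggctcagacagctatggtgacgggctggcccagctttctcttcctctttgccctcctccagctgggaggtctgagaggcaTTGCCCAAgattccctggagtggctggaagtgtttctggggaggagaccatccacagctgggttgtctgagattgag
Cidec: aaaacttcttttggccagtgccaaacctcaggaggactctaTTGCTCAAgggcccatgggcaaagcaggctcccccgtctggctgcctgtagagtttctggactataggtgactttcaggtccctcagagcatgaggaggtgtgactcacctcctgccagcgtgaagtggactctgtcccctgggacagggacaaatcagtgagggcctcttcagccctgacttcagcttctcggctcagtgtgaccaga
Ces1d: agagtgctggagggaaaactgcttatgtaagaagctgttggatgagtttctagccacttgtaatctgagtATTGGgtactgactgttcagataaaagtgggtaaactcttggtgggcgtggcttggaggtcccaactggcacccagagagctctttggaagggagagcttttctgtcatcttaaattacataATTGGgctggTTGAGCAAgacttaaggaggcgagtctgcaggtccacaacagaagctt
Gpam: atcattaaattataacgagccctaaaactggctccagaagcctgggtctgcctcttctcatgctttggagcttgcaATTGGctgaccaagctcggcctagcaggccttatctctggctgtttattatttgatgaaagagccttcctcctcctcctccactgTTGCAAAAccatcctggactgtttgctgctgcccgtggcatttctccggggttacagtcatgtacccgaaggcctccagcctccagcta
The windows are chr11:91240170-91240419 for Adipoq (gene ID 246253, minus strand), chr4:58626288-58626537 for Lep (gene ID 25608, plus strand) and chr1:143086149-143086398 for Plin1 (gene ID 25629, minus strand). Those of the others are chr4:148137116-148137365 for Cidec (gene ID 500292, minus strand), chr19:30046244-30046493 for Ces1d (gene ID 113902, plus strand) and chr1:264175912-264176161 for Gpam (gene ID 29653, minus strand). The C/EBP match lay at -69 to -62 from the start site in Lep, where it reads the same on both strands, at -77 to -70 in Plin1, at -209 to -202 in Cidec, at -48 to -41 in Ces1d and at -89 to -82 in Gpam.

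Other motifs were searched in the same 26 windows on both strands. CCAAT was found in 13 of them (50%) against 34.3% of all promoters, and 10 of these 13 belonged to genes called lower in pMx than in sham, as did 22 of the 26. The direct repeat bound by PPARγ with its partner RXR, AGGTCANAGGTCA with up to 2 letters different, was found in Acly alone (3.85%, against 3.11% of all promoters). The sterol regulatory element TCACNCCAC was found in 0 of the 26 and in 0.976% of all promoters. The E-box CACGTG was found in Mgll alone, and in 5.79% of all promoters. The TATA box TATAAA was found in Cd36 and Cebpa (7.69%, against 13.1%). A match is a run of letters and not a measured binding site, and binding sites outside these windows were not searched.

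Adipokines, the hormones secreted by fat cells, showed some of the largest decreases, with 3 of 3 called lower. Adipoq, which encodes adiponectin, was at 879.71, 699.20 and 649.44 TPM in sham and at 3.20, 0.71 and 11.65 TPM in pMx. All pMx libraries were far below all sham libraries, although pMx replicate 3 held more Adipoq than the other pMx libraries. The log2 fold change was -7.36 (SE 0.98, adjusted p = 0.000629 in limma). Retn, which encodes resistin, was at 284.83, 248.78 and 176.16 TPM in sham and at 2.84, 0.95 and 7.57 TPM in pMx, the third pMx library again being the highest. Its log2 fold change was -5.86 (SE 0.86, adjusted p = 0.00103 in limma). Lep, which encodes leptin, the satiety hormone, was at 14.65, 10.21 and 15.28 TPM in sham and was listed at 0, 0 and 0.04 TPM in pMx. Its log2 fold change of -3.81 (SE 0.75, adjusted p = 0.00466 in limma) understates the change, because 1 TPM was added to values close to 0. The same holds for the other genes near 0 in pMx. With 0.01 in place of 1 TPM added, the fold change was over 1.5 times as large in 7 of the 31 called genes, at -9.59 for Lep, -8.75 for Aqp7, -2.81 for Pnpla3, -10.17 for Ces1d, -4.26 for Adrb3, -4.96 for Mlxipl and -5.55 for Tshr.

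Genes of the lipid droplet surface were called lower in 4 of 4 cases. Cidec, whose protein merges droplets into the large droplet of white fat cells, was at 148.72, 136.44 and 127.05 TPM in sham and at 0.47, 0.39 and 1.62 TPM in pMx. The log2 fold change was -6.30 (SE 0.48, adjusted p = 5.14e-05 in limma). Cidea, a relative of Cidec, was at 71.50, 66.66 and 78.44 TPM in sham and at 8.67, 8.02 and 6.61 TPM in pMx. Cidea thus kept 10.8% of its sham mean where Cidec kept 0.602%, and its log2 fold change was -3.07 (SE 0.19, adjusted p = 2.64e-05 in limma). A like split was seen between the perilipins, proteins that coat the droplet. Plin1, the main perilipin of fat cells, was at 112.29, 102.57 and 81.73 TPM in sham and at 0.49, 0.12 and 2.01 TPM in pMx, which left 0.883%. Plin4 was at 46.58, 42.91 and 42.69 TPM in sham and at 3.67, 2.45 and 4.22 TPM in pMx, which left 7.82%. Neither pair was tested for a difference between its genes.

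Genes of fatty acid, glucose and glycerol transport were called lower in 6 of 6 cases, with a median log2 fold change of -3.10. Fabp4, the fatty acid carrier of fat cells, was by far the most abundant of the 39 genes and made up 43.5% to 45% of their summed TPM in sham and 37.4% to 46.2% in pMx. It was at 3454.59, 3595.46 and 3404.81 TPM in sham and at 297.69, 308.38 and 459.99 TPM in pMx, with a log2 fold change of -3.32 (SE 0.22, adjusted p = 3.15e-05 in limma). Cd36, a fatty acid translocase, was at 45.21, 52.95 and 44.99 TPM in sham and at 4.70, 4.16 and 6.46 TPM in pMx. Lpl, the lipase that frees fatty acids from circulating lipoproteins, was at 173.44, 182.86 and 172.28 TPM in sham and at 33.75, 30.89 and 41.67 TPM in pMx. No pMx library reached a sham library for any of these genes. The pMx means of Cd36 and Lpl were 10.7% and 20.1% of the sham means. Fabp4 and Cd36 are also known from capillary endothelium, and Lpl and Cd36 from macrophages. Among 11 endothelial marker genes, only Cldn5 was called lower in pMx than in sham, and their summed TPM was 976 to 1051 in sham and 784 to 996 in pMx. The most abundant ones, Pecam1, Cdh5 and Emcn, had log2 fold changes of -0.17, 0.33 and -0.87. Without the fold threshold, 4 of the 11 had an adjusted p below 0.05 in limma, all lower, beside 18.9% of all genes. These were Cldn5, Emcn, Vwf (-0.69) and Tek (-0.56). Of 11 macrophage markers only Cd163 was called lower, and their sum was 2374 to 2457 TPM in sham and 1589 to 2145 TPM in pMx. The most abundant, the complement genes C1qa, C1qb and C1qc, had log2 fold changes of -0.35, -0.67 and -0.73. At an adjusted p below 0.05 in limma alone there were 4 of the 11, beside 6046 of all 16512 genes. Cd163, C1qb and C1qc were lower, and Cd68 was higher (0.47, SE 0.15, adjusted p = 0.0428 in limma). Itgam (0.42), Mrc1 (0.08) and Cd14 (0.07) also had positive log2 fold changes, and Csf1r (-0.12), Adgre1 (-0.13) and Aif1 (-0.30) negative ones. None of these markers was listed at 0 in any library, and their part in the remaining levels was not tested.

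Aqp7, the glycerol channel of fat cells, was the transport gene with the least left. It was at 55.10, 52.02 and 48.23 TPM in sham and at 0, 0.22 and 0.75 TPM in pMx, 0.624% of the sham mean, with a log2 fold change of -5.36 (SE 0.46, adjusted p = 8.09e-05 in limma). Acsl1, which activates fatty acids to acyl-CoA, had sham values of 110.17, 130.34 and 93.66 TPM and pMx values of 11.45, 10.65 and 11.41 TPM. Slc2a4, the insulin-responsive glucose transporter GLUT4, had sham values of 24.04, 27.01 and 28.09 TPM and pMx values of 6.37, 5.47 and 5.50 TPM. Both pairs of groups were apart, and 21.9% of the sham mean of Slc2a4 and 10% of that of Acsl1 remained.

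Fatty acid synthesis was the role in which the genes differed most from each other, with 2 of 7 called lower and a median log2 fold change of -0.82. Scd, the desaturase that makes monounsaturated fatty acids, was at 179.63, 494.88 and 407.35 TPM in sham and at 3.42, 4.33 and 1.73 TPM in pMx. Thrsp, a lipogenic protein responsive to thyroid hormone, was at 345.99, 461.88 and 374.83 TPM in sham and at 1.79, 0.56 and 4.86 TPM in pMx. The log2 fold changes were -6.37 for Scd (SE 0.73, adjusted p = 0.000293 in limma) and -7.06 for Thrsp (SE 0.53, adjusted p = 4.72e-05 in limma), and less than 1% of either sham mean was left. Reads of Scd can be shared with its close relative Scd2, and how such reads were divided is not given in the sources used here.

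The enzymes upstream of Scd behaved otherwise. Acly, which supplies cytosolic acetyl-CoA, was at 55.55, 59.80 and 60.88 TPM in sham and at 52.41, 52.93 and 52.76 TPM in pMx, and its log2 fold change of -0.15 (SE 0.12) did not pass (adjusted p = 0.369 in limma). Elovl6, which elongates palmitate, was at 2.07, 3.79 and 3.24 TPM in sham and at 4.22, 3.39 and 3.44 TPM in pMx, where the groups overlapped (log2 fold change 0.24, SE 0.26, adjusted p = 0.536 in limma). These genes therefore had pMx means of 89.7% and 121% of sham. Me1, the malic enzyme that provides NADPH, had an adjusted p of 0.00438 in limma but a log2 fold change of only -0.59 (SE 0.12), short of the fold threshold. Acaca, which makes malonyl-CoA, had a log2 fold change of -0.82 (SE 0.30, adjusted p = 0.061 in limma). Its pMx libraries, at 11.04, 11.54 and 10.46 TPM, all lay below the sham libraries, at 16.42, 23.07 and 21.47 TPM.

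Fasn, the fatty acid synthase, was the gene whose call turned on the intact libraries. It was at 57.25, 124.38 and 109.30 TPM in sham and at 26.09, 25.05 and 24.34 TPM in pMx, so the groups did not overlap. The log2 fold change of -1.83 had an SE of 0.68 and an adjusted p of 0.0658 in limma, since the 9 libraries share an estimate of the spread and Fasn ranged from 11.16 to 108.94 TPM in intact. Fitted on the 6 pMx and sham libraries alone, the same fold change had an SE of 0.27 and an adjusted p of 0.00177 in limma. It also passed without intact replicate 1 (adjusted p = 0.00657) or without intact replicate 3 (adjusted p = 0.0147).

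Triglyceride synthesis was likewise uneven, with 4 of 7 genes called lower. The largest decreases were in the supply of the glycerol backbone. Gpd1, which makes glycerol phosphate from an intermediate of glycolysis, was at 174.02, 196.70 and 153.92 TPM in sham and at 5.24, 5.43 and 3.18 TPM in pMx (log2 fold change -4.99, SE 0.32, adjusted p = 2.95e-05 in limma). Pck1, which provides the backbone through glyceroneogenesis, was at 81.90, 47.44 and 44.06 TPM in sham and at 0.37, 0.14 and 0.81 TPM in pMx (log2 fold change -5.32, SE 0.57, adjusted p = 0.000221 in limma). Dgat2, an enzyme of the last step, was at 111.26, 120.70 and 99.10 TPM in sham and at 10.62, 11.00 and 13.15 TPM in pMx, whereas Dgat1, the unrelated enzyme of the same step, was at 52.90, 49.68 and 42.27 TPM in sham and at 29.52, 25.89 and 26.55 TPM in pMx. All pMx libraries lay below all sham libraries for these 4 genes. Dgat2 kept 10.5% of its sham mean and was called lower (log2 fold change -3.15, SE 0.56, adjusted p = 0.00276 in limma). Dgat1 kept 56.6% and did not reach the fold threshold (log2 fold change -0.80, SE 0.22, adjusted p = 0.0227 in limma).

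Of the acyltransferases and phosphatase between these steps, only Agpat2, which makes phosphatidic acid, was called lower (log2 fold change -1.83, SE 0.36, adjusted p = 0.00449 in limma). Gpam, the acyltransferase of the first step, had a log2 fold change of -0.46 (SE 0.09, adjusted p = 0.00504 in limma), with 9.28 to 10.08 TPM in pMx and 12.46 to 15.16 TPM in sham. Lpin1, the phosphatase that yields diacylglycerol, was just short of the fold threshold at -0.99 (SE 0.19, adjusted p = 0.00395 in limma), and passed it with a pseudocount of 0.1 (-1.14) or 0.01 (-1.16). Its 3 pMx libraries, at 4.70, 3.64 and 3.62 TPM, were below its sham libraries, at 8.67, 9.54 and 8.39 TPM.

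Genes of lipolysis, the release of stored fat, were called lower in 6 of 6 cases. The sequential lipases of the droplet kept a measurable level. Pnpla2, which encodes the triglyceride lipase ATGL, was at 125.16, 143.28 and 103.00 TPM in sham and at 22.38, 23.46 and 23.44 TPM in pMx. Lipe, the hormone-sensitive lipase, was at 79.70, 75.94 and 62.87 TPM in sham and at 23.80, 22.92 and 25.33 TPM in pMx. Mgll, the monoglyceride lipase, was at 115.70, 118.10 and 114.71 TPM in sham and at 33.05, 31.18 and 35.51 TPM in pMx. The groups were apart for all 3 lipases, and 18.7%, 33% and 28.6% of their sham means remained. Their log2 fold changes were -2.36, -1.56 and -1.78.

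Ces1d, a carboxylesterase that hydrolyzes triglyceride in fat cells and liver, was by contrast at 131.23, 114.57 and 105.00 TPM in sham and at 0, 0.19 and 0.51 TPM in pMx. The log2 fold change was -6.59 (SE 0.81, adjusted p = 0.000413 in limma), and 0.2% of the sham mean remained. Ces1d has close paralogs in a gene cluster, and its value is uncertain to the extent that reads were divided among them. Adrb3, the beta-adrenergic receptor that starts lipolysis in rodent fat, was low throughout, at 6.37, 4.75 and 3.54 TPM in sham and at 0.52, 0.11 and 0.23 TPM in pMx (log2 fold change -2.18, SE 0.50, adjusted p = 0.00987 in limma). Pnpla3, a lipase relative induced by feeding, was at 2.86, 4.41 and 4.33 TPM in sham and at 0.52, 0.52 and 0.56 TPM in pMx (log2 fold change -1.65, SE 0.36, adjusted p = 0.00803 in limma).

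The 2 remaining genes were also called lower. Tshr, the receptor of thyrotropin, which fat cells express outside the thyroid, was at 7.58, 7.70 and 4.69 TPM in sham and at 0.09, 0.13 and 0.18 TPM in pMx (log2 fold change -2.73, SE 0.47, adjusted p = 0.0022 in limma). Sncg, which encodes γ-synuclein, a protein of fat cells and peripheral nerve, was at 624.70, 483.75 and 590.05 TPM in sham and at 69.34, 61.23 and 84.37 TPM in pMx (log2 fold change -2.97, SE 0.22, adjusted p = 4.75e-05 in limma). Both genes were below every sham library in every pMx library. The part of nerve in the Sncg result was not tested.

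The pMx level as a percentage of the sham level ranged from 0.0997% for Lep to 121% for Elovl6, with a median of 10.8%. In 13 genes less than 5% remained, and these were Lep, Ces1d, Cidec, Thrsp, Aqp7, Adipoq, Pck1, Scd, Plin1, Retn, Tshr, Gpd1 and Mlxipl. In 11 genes between 5% and 20% remained, among them Fabp4, Cd36, Cidea, Dgat2 and Pparg. Between 20% and 50% remained in 9 genes, among them Lpl, Slc2a4, the lipases Lipe and Mgll, and Cebpa. At least 50% remained in Acaca, Dgat1, Me1, Gpam, Acly and Elovl6, 6 enzymes that many other cell types also use for membrane and storage lipids. The 8 genes not called in pMx versus sham were these 6 together with Fasn and Lpin1.

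**Figure D2:**
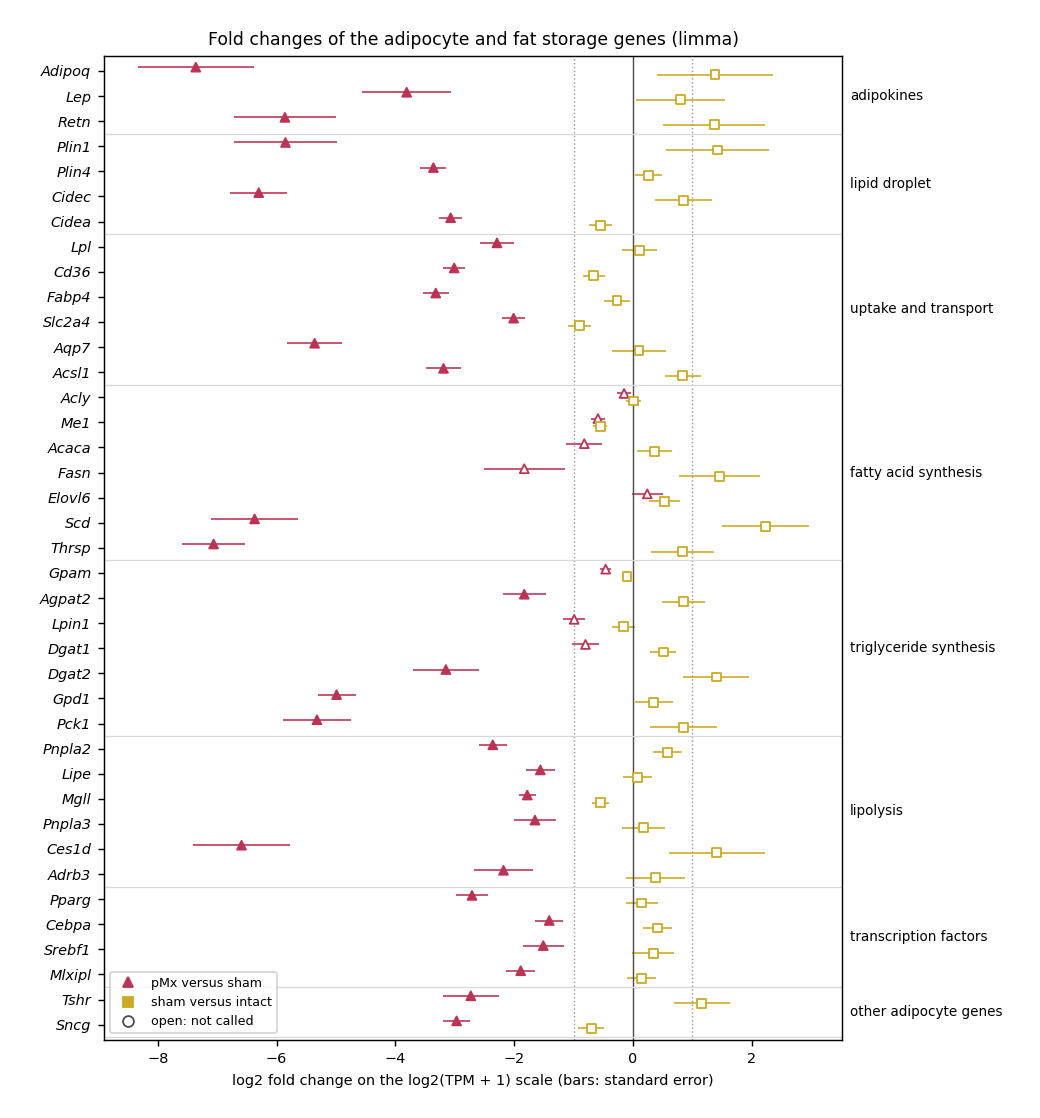
Log2 fold change of each gene on the log2(TPM + 1) scale with its standard error from limma, for pMx versus sham (triangles) and sham versus intact (squares), where filled symbols are DEGs, open symbols are not, and dotted lines mark the fold threshold. In pMx versus sham 31 triangles are filled and lie left of the lower line, while 0 of the 39 squares are filled.

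The comparison of sham with intact synovium addresses what the operation itself changed, without the removal of meniscus. None of the 39 genes was called in limma, beside 0.533% of all genes called lower and 1.42% called higher. At an unadjusted p below 0.05 there were 13 of 39, beside 28.7% of all genes tested, and the median log2 fold change was 0.36. An adjusted p below 0.05 without the fold threshold was reached by 3 genes, all lower in sham, beside 5.97% of all genes. These were Slc2a4 (log2 fold change -0.90, SE 0.19, adjusted p = 0.02 in limma), Me1 (-0.55, SE 0.12, adjusted p = 0.021) and Mgll (-0.55, SE 0.14, adjusted p = 0.0346). All sham libraries were below all intact libraries for Cd36, Slc2a4, Me1, Mgll and Sncg, 5 of 39, beside 16.4% of all genes, and all were above for 0 of 39, beside 14.2%. Slc2a4 was at 48.12, 37.97 and 68.80 TPM in intact, and Sncg at 1216.74, 966.40 and 646.28 TPM.

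This comparison rested on the intact libraries, which were not alike in adipocyte transcripts. The ratio of the highest to the lowest intact library had a median of 2.65 over the 39 genes, against 1.28 over the sham libraries. Adipoq was at 1027.27 TPM in intact replicate 1, 327.29 TPM in replicate 2 and 65.81 TPM in replicate 3. Lep was at 26.41, 8.37 and 1.10 TPM in the same order, and Scd at 238.87, 49.58 and 28.32 TPM. Intact replicate 1 was the highest intact library for 34 of the 39 genes, as it was for 36% of all genes tested, and intact replicate 3 was the lowest for 33, as it was for 60.5% of all genes. Replicate 3 was instead the highest for Slc2a4, Me1, Gpam, Lpin1 and Mlxipl.

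The same intact library stood apart in skeletal muscle transcripts. The summed TPM of 18 muscle genes was 62855 in intact replicate 3, 401 in replicate 2 and 108 in replicate 1. It was 418 to 4548 TPM in sham and 134 to 4631 TPM in pMx, and 0 of the 18 genes were called in any of the comparisons in limma, with 0 at an unadjusted p below 0.05. The most abundant, Acta1, Tnnc2 and Mylpf, had pMx versus sham log2 fold changes of -0.34 (SE 2.63), -0.32 (SE 2.37) and 0.01 (SE 2.52). The muscle gene Myh7 was listed at 0 in at least 1 intact and 1 pMx library. Slc2a4 is also a muscle gene. The part of muscle in the intact values was not tested.

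Leaving out single intact libraries moved the sham versus intact counts. Without intact replicate 1, 7 genes were called higher in sham in limma, namely Acsl1, Fasn, Scd, Agpat2, Dgat2, Ces1d and Tshr, with log2 fold changes of 1.23 to 3.11, beside 423 of all 16402 genes in that fit called in either direction. Without intact replicate 2, Slc2a4 was called lower (-1.10, SE 0.15, adjusted p = 0.0157), beside 248 of 16408 genes. Without intact replicate 3 the count stayed at 0. The 31 genes called lower in pMx versus sham were called under every alternative that was run, including each library left out in turn.

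Across the 39 genes, a wider spread over the intact libraries tended to go with less left in pMx, though not in every gene. The 6 genes with an intact ratio above 10 were Lep, Plin1, Ces1d, Adipoq, Retn and Tshr, and less than 5% of the sham level remained in 6 of these 6. Of the 11 genes with an intact ratio below 2, 0 had less than 5% left. Between these cuts the order was looser. Fasn, with an intact ratio of 9.76, kept 25.9% of its sham mean, while Thrsp, with a ratio of 3.28, kept 0.61%. Spearman's rho between the ratio and the percentage left was -0.64 over 39 genes, and -0.25 when the ratio was taken over the sham libraries. These values describe genes measured in the same libraries, which are not independent replicates. The intact libraries do not enter the percentage left, but ratios of low values are less precise.

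**Figure D3:**
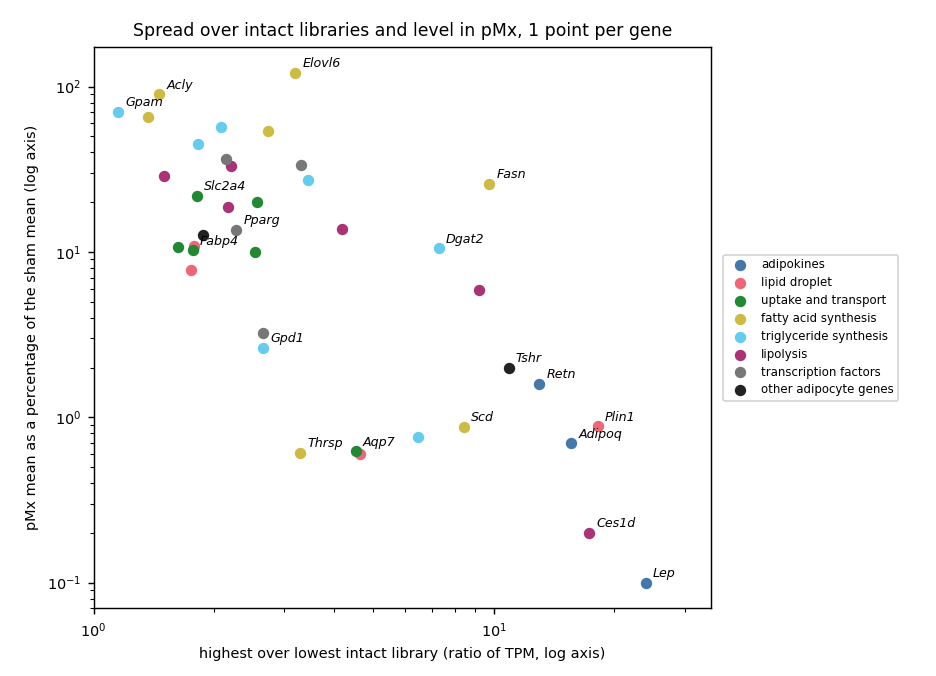
Ratio of the highest to the lowest intact library (horizontal, log axis) against the pMx mean as a percentage of the sham mean (vertical, log axis), with 1 point per gene colored by role. Lep, Ces1d, Plin1 and Adipoq lie at the lower right with ratios of 15.6 to 24 and less than 1% left, and Gpam, Acly and other broadly used enzymes lie at the upper left.

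In pMx versus intact, which shares the pMx libraries with the comparison above, 32 of 39 genes were called lower and 0 higher, beside 7.89% of all genes called lower and 6.4% called higher. The median log2 fold change was -2.33. All pMx libraries were below all intact libraries for 33 of 39 genes, beside 30.6% of all genes. The smallest adjusted p values of the 39 genes, 3.49e-06 to 7.11e-06 in limma, were those of Cidea, Cd36, Fabp4, Slc2a4, Sncg and Mgll. Their log2 fold changes lay between -3.67 and -2.33, and their intact means were above 50 TPM. Other genes above 50 TPM in intact ranged more widely, from -6.22 for Thrsp to -0.14 for Acly. Me1 and Lpin1 were called lower here, at -1.14 (SE 0.12, adjusted p = 6.93e-05 in limma) and -1.15 (SE 0.19, adjusted p = 0.00109). Agpat2, at -0.98 (SE 0.36, adjusted p = 0.0495), was not. Elovl6 lay in the opposite direction. Its intact libraries were at 3.06, 1.60 and 0.96 TPM, all below the pMx libraries, an order seen in 26.9% of all genes, and the log2 fold change was 0.77 (SE 0.26, adjusted p = 0.0392 in limma), short of the fold threshold. Without intact replicate 1 it was called higher, at 1.05 (SE 0.21, adjusted p = 0.00499), and it was also called at the smaller pseudocounts (1.08 and 1.12).

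The pMx libraries differed from each other more in some genes than in others. The highest pMx library was replicate 3 for 21 of the 39 genes, against 28.5% of all genes, and the lowest was replicate 2 for 20, against 28%. Replicate 3 led for Adipoq, Retn, Plin1, Cidec, Thrsp and Pck1, whereas for Slc2a4, Lpin1 and Cidea it did not. Pnpla2, Lipe, Acly, Fasn and Dgat1 were nearly level over the pMx libraries. The pMx libraries of Acly spanned 52.41 to 52.93 TPM and those of Fasn 24.34 to 26.09 TPM, against 0.71 to 11.65 TPM for Adipoq.

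Adipocyte genes outside the 39 were counted in the same way. Of 30 further adipocyte genes tested, 20 were called lower in pMx than in sham and 0 higher, with a median log2 fold change of -1.89. Over all genes tested, 4.85% were called lower and 3.36% higher, and these shares apply to the lists that follow too. This list was also chosen with earlier results of these data known, so its count is not independent support. The most abundant of them were Cfd, which encodes adipsin, Rarres2, which encodes chemerin, and Retsat, a retinol saturase. Cfd was at 1636 ± 336 TPM in sham and 96.8 ± 42.8 TPM in pMx (SD, n = 3), with a log2 fold change of -4.13 (SE 0.73, adjusted p = 0.00259 in limma). Retsat was called lower at -2.13 (SE 0.35, adjusted p = 0.00179), and Rarres2 was not called, at -0.48 (SE 0.13, adjusted p = 0.0229). In sham versus intact 0 of the 30 were called in limma and 7 had an unadjusted p below 0.05, beside 28.7% of all genes, and the sum was 3996 to 4908 TPM in sham and 1895 to 5306 TPM in intact.

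Genes of fatty acid oxidation, which burn fat in mitochondria, were counted as the counterpart of storage. Of 21 tested, 0 were called in pMx versus sham in limma, 15 had an unadjusted p below 0.05, beside 45.6% of all genes, and the median log2 fold change was -0.50. Without the fold threshold, 10 had an adjusted p below 0.05 in limma, all lower, beside 18.9% of all genes. Their summed TPM was 1222 to 1353 in sham and 925 to 938 in pMx. The most abundant ones had values close to this median, with -0.55 for Hadhb (SE 0.14), -0.50 for Etfa (SE 0.09) and -0.54 for Etfb (SE 0.09). In pMx versus intact, Acadm and Acaa2 were called lower.

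Adipocyte progenitor genes were divided. Of 12 tested, 5 were called lower in pMx than in sham, namely Ebf2, Dpp4, Pi16, Klf5 and Klf15. Pi16, a marker of fascial and adventitial progenitors, was at 124 ± 8.29 TPM in sham and 33.5 ± 1.22 TPM in pMx. Pdgfra and Cebpb, the other abundant genes of this list, had log2 fold changes of -0.08 (SE 0.12) and 0.01 (SE 0.11), with adjusted p values of 0.65 and 0.975 in limma. Dlk1 (0.97, SE 0.36, adjusted p = 0.0662 in limma) and Cebpd (0.29) leaned higher in pMx without a call, and Zfp423 (-0.80) and Ebf1 (-0.26) leaned lower. In pMx versus intact Dlk1 was called higher (1.03, adjusted p = 0.042 in limma). Cebpb encodes a factor that acts before PPARγ when fat cells form. In sham versus intact only Dpp4 was called, and it was higher in sham. Of 6 thermogenic fat genes tested, 4 were called lower in pMx than in sham, which were Prdm16, Dio2, Tbx1 and Kcnk3. The largest of these was the potassium channel gene Kcnk3, at 14.9 ± 2.43 TPM in sham and 1.06 ± 0.411 TPM in pMx. The other abundant genes of this list, Cox8b and Tmem26, had log2 fold changes of -0.18 (SE 2.09) and 0.94 (SE 0.22). Cox8b was at 1338.33 TPM in intact replicate 3, the library with the highest muscle sum, and at 3.64 and 7.76 TPM in intact replicates 1 and 2. The part of muscle in the Cox8b values was not tested.

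Markers of other cells moved with these results in part. Of 7 synovial lining genes 4 were called lower in pMx than in sham (Clic5, Cd55, Htra4 and Hbegf), with sums of 4131 to 5518 TPM in intact, 2239 to 3068 TPM in sham and 1319 to 2067 TPM in pMx. The most abundant were Prg4, at a log2 fold change of 0.12, Htra4 at -3.19 and Clic5 at -4.09. Of 7 fibroblast genes 4 were called higher (Col1a1, Col1a2, Thy1 and Lum), with sums of 22701 to 27124 TPM in sham and 56138 to 60485 TPM in pMx. The most abundant were the collagen genes Col3a1, at a log2 fold change of 0.97, Col1a1 at 1.81 and Col1a2 at 1.77. Dcn went the other way, from 4683 TPM in sham to 2441 TPM in pMx, and was not called (-0.94, SE 0.14, adjusted p = 0.000994 in limma). Of 8 fibrocartilage genes Acan, Sox9 and Fmod were called higher and 0 lower. Chad, Cilp and Col2a1 had negative log2 fold changes, at -3.07 (SE 1.40, adjusted p = 0.124 in limma), -0.65 (SE 0.19, adjusted p = 0.0251) and -0.06 (SE 0.92). The most abundant were Comp, at a log2 fold change of 0.71, Fmod at 1.40 and Acan at 3.43. None of the markers in these 3 lists was listed at 0. Because TPM has a fixed total, a rise in abundant transcripts lowers the values of all others. The part of these cells and of the fixed total in the results was not tested.

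**Figure D4:**
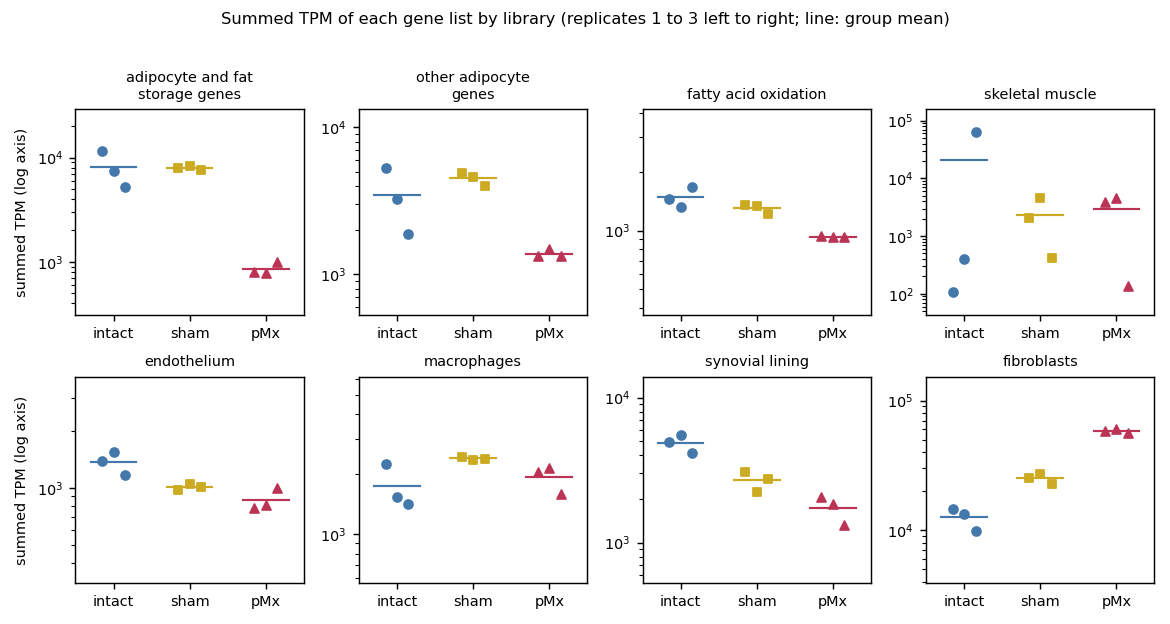
Summed TPM of 8 gene lists in each library on log axes, 1 panel per list with its own scale, replicates 1 to 3 from left to right and a line at each group mean. The 39 genes drop from 7574 to 8236 TPM in sham to 776 to 995 TPM in pMx. The sums of synovial lining genes are lower in pMx than in sham, and those of fatty acid oxidation and endothelial genes shift less. The sum of fibroblast genes rises, and intact replicate 3 stands out in skeletal muscle genes.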

How the data were processed

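RNA was extracted with a Qiagen kit (RNeasy Mini per the labels, miRNeasy Mini in the study's methods), mRNA was captured on oligo-dT beads, and libraries with dUTP in the second strand were sequenced at BGI. The authors deposited TPM values for 17602 genes, rounded to 2 decimals, computed in BGI's Dr. Tom system. The submitters' processing notes name HISAT2 2.0.4 and the build mRatBN7.2; the counting tool, the annotation and the handling of reads shared by paralogs are not given in the sources used here. TPM keep no read numbers, so depth is unknown and precision rests on the spread over 3 libraries per group. Libraries had 15644 to 16125 genes above 0 TPM, none of the library pairs was identical, and Pearson's r of log2(TPM + 1) was 0.954 to 0.996 within groups and 0.902 to 0.989 between groups.

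Samples were grouped by their titles and treatments. Genes with a TPM above 0 in 3 or more libraries, 16512 in number, were kept and transformed as log2(TPM + 1). With R 4.3.3 and limma 3.58.1, a model with a mean per group was fitted to the 9 libraries by lmFit and contrasts.fit, and eBayes was run with its trend option. The p-values of each comparison were adjusted over all genes by the Benjamini-Hochberg method. The study's methods give DEG thresholds but no test. The pMx versus sham and sham versus intact comparisons share the sham libraries. The p-values measure the spread between these libraries. Scripts were tested on simulated data.

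All 39 genes are named. Of the other lists that are reported, counts are given with the 3 genes of highest mean TPM and any genes a small count refers to. The members and lists were chosen with earlier results of these data known. Gene IDs of all 39 were found under the same symbol in a RefSeq table of GRCr8, which also gave the promoters. Its positions are given only for the printed promoter windows, since the expression values rest on another build. Alternatives were pseudocounts of 0.1 and 0.01, no filter or a mean of at least 1 TPM, quantile normalization, median-of-ratios rescaling, fits on 6 libraries, robust eBayes or eBayes with no trend, a replicate block, adjusted p alone or below 0.01, and leaving out single libraries. A further alternative, a covariate for the skeletal muscle score, was chosen after seeing the data. Protein sequences were not used here, and some genes of the lists are not reported here.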

Additional observations from a re-analysis of the deposited data

How the results depend on the processing

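In pMx versus sham, 31 to 35 of the 39 genes were called under every alternative run, and 31 to 32 with single libraries left out. All 31 genes called in the reported fit were among them. Fasn was called in 4 alternatives, and Lpin1 in 5. In sham versus intact the count was 0, except 3 with adjusted p below 0.05 alone, 1 with the skeletal muscle score as a covariate, chosen after seeing the data (Dgat2, 1.38, adjusted p = 0.0321 in limma), and 0 to 7 with single libraries left out. In pMx versus intact it was 32 in the reported fit and 28 to 35 over the alternatives. It was 28 with adjusted p below 0.01, 35 with adjusted p alone, 34 at either smaller pseudocount (33 lower and 1 higher), 31 with either rescaling, the fit on 6 libraries or robust eBayes, and 28 to 32 with single libraries left out, with Dgat2, Cebpa, Srebf1, Tshr, Lpin1, Pnpla3 and Adrb3 losing their call in some alternatives. The summed level was -3.33 to -3.14 on the log2 scale for pMx to sham with single libraries left out, -0.26 to 0.32 for sham to intact and -3.47 to -2.89 for pMx to intact.

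Fold changes that turned sign when a library was left out were all short of a call. Over the libraries left out in turn, sham versus intact log2 fold changes ranged from -0.18 to 1.68 for Lep, -0.24 to 0.44 for Lpl, -0.43 to 0.63 for Aqp7, -0.14 to 0.13 for Acly, -0.35 to 0.05 for Lpin1, -0.02 to 0.68 for Gpd1, -0.21 to 0.35 for Lipe, -0.13 to 0.67 for Pnpla3, -0.19 to 0.99 for Adrb3, -0.17 to 0.40 for Pparg, -0.05 to 0.78 for Srebf1 and -0.18 to 0.31 for Mlxipl. Leaving out intact replicate 3 turned the sign for 10 of these genes, all but Gpd1 and Mlxipl, which turned without intact replicate 2, and Acly turned also without sham replicate 3 (-0.01). In pMx versus intact Fasn ranged from -1.12 to 0.47, the latter without intact replicate 1. The cause was not tested.

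Over all genes, DEGs numbered 1355 in pMx versus sham, 323 in sham versus intact and 2360 in pMx versus intact. Pseudocounts of 0.1 and 0.01 gave 2229 and 2303, 612 and 603, and 3531 and 3662. Adjusted p alone gave 6046, 2097 and 8350. In sham versus intact, adjusted p below 0.01 gave 190 and leaving out sham replicate 2 gave 193.

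Same-numbered libraries did not deviate together in all pairs. The correlations of their deviations from the group means were 0.03, 0.37 and 0.48 for replicates 1, 2 and 3 in pMx and sham, 0.00, -0.40 and -0.49 in sham and intact, and -0.38, -0.44 and -0.66 in pMx and intact, and nothing in the labels pairs them. With the replicate number as a block, 31, 0 and 32 of the 39 genes were called, and 1343, 297 and 2350 of all genes.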
